A study of Mus musculus with 18 samples.

Results

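The vessel wall 28 days after arterial injury was compared with that 7 days after it, in 3 libraries of day 28 and 4 libraries of day 7, which are 7 of the 18 libraries of the series. All 7 came from male wild-type (WT) mice of the strain C57/BL6, 11 weeks old at surgery, whose left common carotid artery had been injured with a wire. The day 28 and day 7 groups thus share genotype, strain, sex, vessel and injury and differ in the time since the injury, and with it in age at collection. Frozen carotid sections were cut by laser along the outer elastic lamina, so that a library holds the medial layer and the neointima, the new tissue inside it, and no deliberately collected adventitia. Vessels with a thrombus had been discarded, many sections went into each library, and the study speaks of pooled samples without giving the number of mice behind each. The other 11 libraries (day 0, labelled as before injury, with 4, day 14 with 3 and day 21 with 4) entered the same fit and are given here only as reference levels. The libraries were chosen by the day in their labels alone, and all 10312 genes that passed a filter on low counts were tested.

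Wire injury strips the endothelium and stretches the wall. In this model smooth muscle cells of the media lose much of their contractile gene expression, divide and lay down matrix, while monocytes enter, become macrophages and clear debris. Later the inflammatory infiltrate wanes, division stops and smooth muscle cells can regain contractile genes, whose transcription depends on serum response factor (SRF) and its coactivator myocardin. Day 7 lies in the inflammatory and proliferative stage of this course and day 28 in the late stage, so the comparison asks what had gone and what had returned 3 weeks later.

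The reads were of the MACE type, which takes the 3′ end of each transcript. Total counts were 484259 to 676624 on day 7 and 555142 to 722000 on day 28, and levels are given as CPM, the count scaled by the normalised library total (over the genes tested), always in the order of replicates 1 to 4 (day 7) and 1 to 3 (day 28), day 7 first. Log2 fold changes are of day 28 against day 7 and carry their standard error (SE) after the ± sign. Day 7 libraries held a count for 12254 to 13091 genes, against 12350, 10818 and 10674 on day 28. Pairs of day 7 libraries had a median correlation of 0.849 over genes, pairs of day 28 libraries 0.763 and pairs across the days 0.653. Each day held a library that stood apart in particular gene groups. Day 7 replicate 4 had the highest contractile gene sum and by far the highest elastin level of its day, and day 28 replicate 1 had high heat shock and chaperone genes. Counts of genes below are therefore also given without these libraries where that matters. Where exons of a gene named below overlap those of another protein-coding gene, the split of reads is uncertain, which holds for Atp2a2, Col18a1, Csf1r, Ctsb, Cxcl16, H2-Aa, Inpp5a, Junb, Nr1d1, Per3 and Vcl (opposite strand), for Alpl and Ctsd (same strand) and for the genes where it is stated.

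Of the 10312 genes tested, 1490 (14.4%) passed an adjusted p of 0.05 in edgeR's quasi-likelihood test and are called changed. On day 28, 660 of them (6.4% of all tested) were higher and 830 (8.05%) were lower. The median log2 fold change of all genes tested was -0.07. For 569 of the genes called higher (86.2%) and 752 of those called lower (90.6%), no day 28 library overlapped any day 7 library, against 9.74% and 14.4% of all genes tested whose libraries separated in the same way. Without day 28 replicate 1 the test called 1717 genes, without day 7 replicate 4 it called 1530, and without day 7 replicate 2 it called 1009. The 830 genes called lower became 512, 553 and 520 without day 28 replicate 2, day 7 replicate 1 and day 7 replicate 2. They include 91 genes without a read on day 28, while 9 of the genes called higher had none on day 7. With only genes of at least 10 counts in 7 libraries kept, 666 were called higher and 640 lower, so the excess of lower genes depended on the filter. Fewer cells of a type and less RNA per cell cannot be told apart in tissue libraries, and this holds for every result here.

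**Figure D1:**
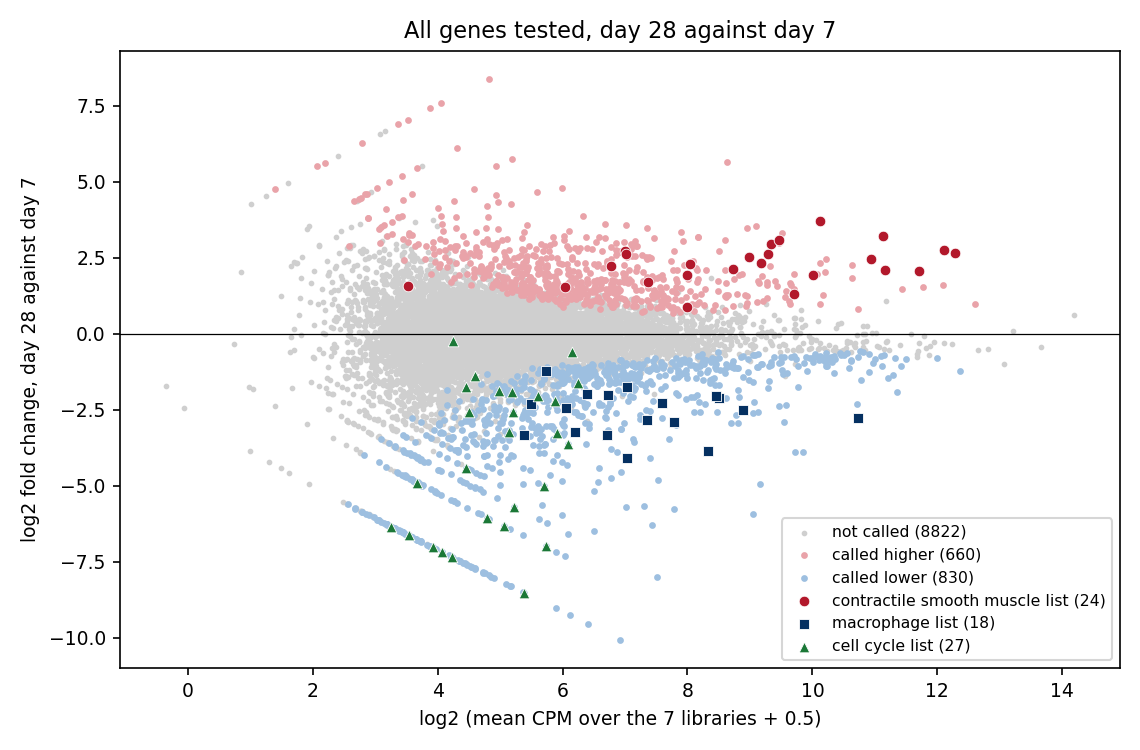
Log2 fold change of day 28 against day 7 (vertical axis) against the log2 mean CPM over the 7 libraries plus 0.5 (horizontal axis), 1 point per gene tested, with the 660 genes called higher in light red and the 830 called lower in light blue. The 24 contractile smooth muscle genes (dark red circles) lie above 0, and the 18 macrophage genes (dark blue squares) and 27 cell cycle genes (green triangles) lie below it.

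The same test called far fewer genes between day 28 and days 14 and 21. It called 70 genes against day 21 (0.679%, with 11 or 0.107% higher and 59 or 0.572% lower on day 28) and 72 against day 14 (0.698%, with 4 or 0.0388% higher and 68 or 0.659% lower). Against day 0 it called 138 (1.34%, with 100 or 0.97% higher and 38 or 0.369% lower), while day 7 differed from day 0 in 2041 genes (19.8%, with 11.3% higher and 8.53% lower on day 7). These comparisons share the day 28 or the day 7 libraries with the one described here and are not independent of it. Without day 28 replicate 1 the test called 410 genes against day 21 and 279 against day 14, without replicate 2 it called 15 and 10, and without replicate 3 it called 16 and 14. At an unadjusted p under 0.05 the counts were 2836 against day 7, 1553 against day 21 and 1335 against day 14.

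Genes of the smooth muscle contractile apparatus were the group with the most members higher on day 28. Of 24 genes tested, 22 (91.7%) were called higher and 0 lower, beside 6.4% of all genes, and the median log2 fold change was 2.31. Their summed level was 8547, 5344, 6339 and 16590 CPM in the day 7 libraries and 56740, 47790 and 48050 CPM on day 28. Every day 28 library was above every day 7 library, of which replicate 4 was the highest. The sum on day 0 was 66430 to 73870 CPM, above all 3 day 28 libraries. The count came to 22 with day 7 replicate 4 left out and 21 with day 28 replicate 1 left out.

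Acta2, the smooth muscle α-actin of the thin filament, had 1549, 895, 1009 and 2694 CPM on day 7 and 12630, 8650 and 7552 CPM on day 28. All 3 day 28 libraries exceeded the highest day 7 library, and the log2 fold change was 2.64 ± 0.37 (adjusted p = 4.93e-05). Myh11, the smooth muscle myosin heavy chain and the marker most restricted to differentiated smooth muscle, had 187, 37.7, 75.8 and 416 CPM on day 7 and 2342, 2398 and 2296 CPM on day 28. The 3 day 28 values lay close together, whereas the day 7 values were widely spread with replicates 1 and 4 on top, and the log2 fold change was 3.70 ± 0.55 (adjusted p = 1.12e-04). Tagln, an actin-binding protein of the thin filament, went from 1159, 417, 562 and 2950 CPM to 9998, 8226 and 7516 CPM, a log2 fold change of 2.75 ± 0.48 (adjusted p = 4.11e-04). Cnn1, calponin, which inhibits the myosin ATPase, gave 217, 55.7, 87.7 and 308 CPM on day 7 and 1666, 918 and 1275 CPM on day 28, a log2 fold change of 2.94 ± 0.46 (adjusted p = 1.39e-04). The days did not overlap for any of these genes, and in Tagln and Cnn1 replicate 4 was the highest day 7 library. Exons of Acta2, Tagln and Cnn1 overlap those of Stambpl1, Pcsk7 and Elof1 on the opposite strand, and whether the counting used strand is not given in the sources used here.

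The kinase that starts contraction and its substrate rose as well. Mylk, the myosin light chain kinase, had 248, 156, 118 and 266 CPM on day 7 and 1287, 1154 and 1155 CPM on day 28, and its log2 fold change was 2.60 ± 0.32 (adjusted p = 1.61e-05). Myl9, the regulatory light chain that this kinase phosphorylates, had 522, 199.5, 275 and 956 CPM and 4378, 4293 and 5048 CPM, a log2 fold change of 3.23 ± 0.41 (adjusted p = 2.34e-05). In both genes the lowest day 28 library was over 4 times the highest day 7 library. Cald1, caldesmon, was the member with the smallest p: it had 185, 183, 164 and 158 CPM on day 7 and 732, 853 and 697 CPM on day 28, with little spread in either group and replicate 4 not above its fellows (log2 fold change 2.14 ± 0.24, adjusted p = 4.70e-06). Flna, filamin A, which crosslinks actin, rose from 1092, 1080, 1035 and 2425 CPM to 5705, 5638 and 6392 CPM (log2 fold change 2.07 ± 0.31, adjusted p = 1.14e-04). Itga8, the integrin α8 subunit, and Lmod1, leiomodin, had a wide day 7 spread. Itga8 had 185, 16.2, 31.9 and 439 CPM on day 7 and 1497, 1662 and 1133 CPM on day 28 (log2 fold change 3.08 ± 0.63, adjusted p = 0.00169). Lmod1 had 148, 18, 37.9 and 460.1 CPM and 903, 1001 and 983 CPM (log2 fold change 2.52 ± 0.58, adjusted p = 0.00436). Vcl, vinculin, was not called, with 167, 203, 132 and 247 CPM on day 7 and 547, 222 and 260.5 CPM on day 28 (adjusted p = 0.128), and its values overlapped between the days.

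**Figure D2:**
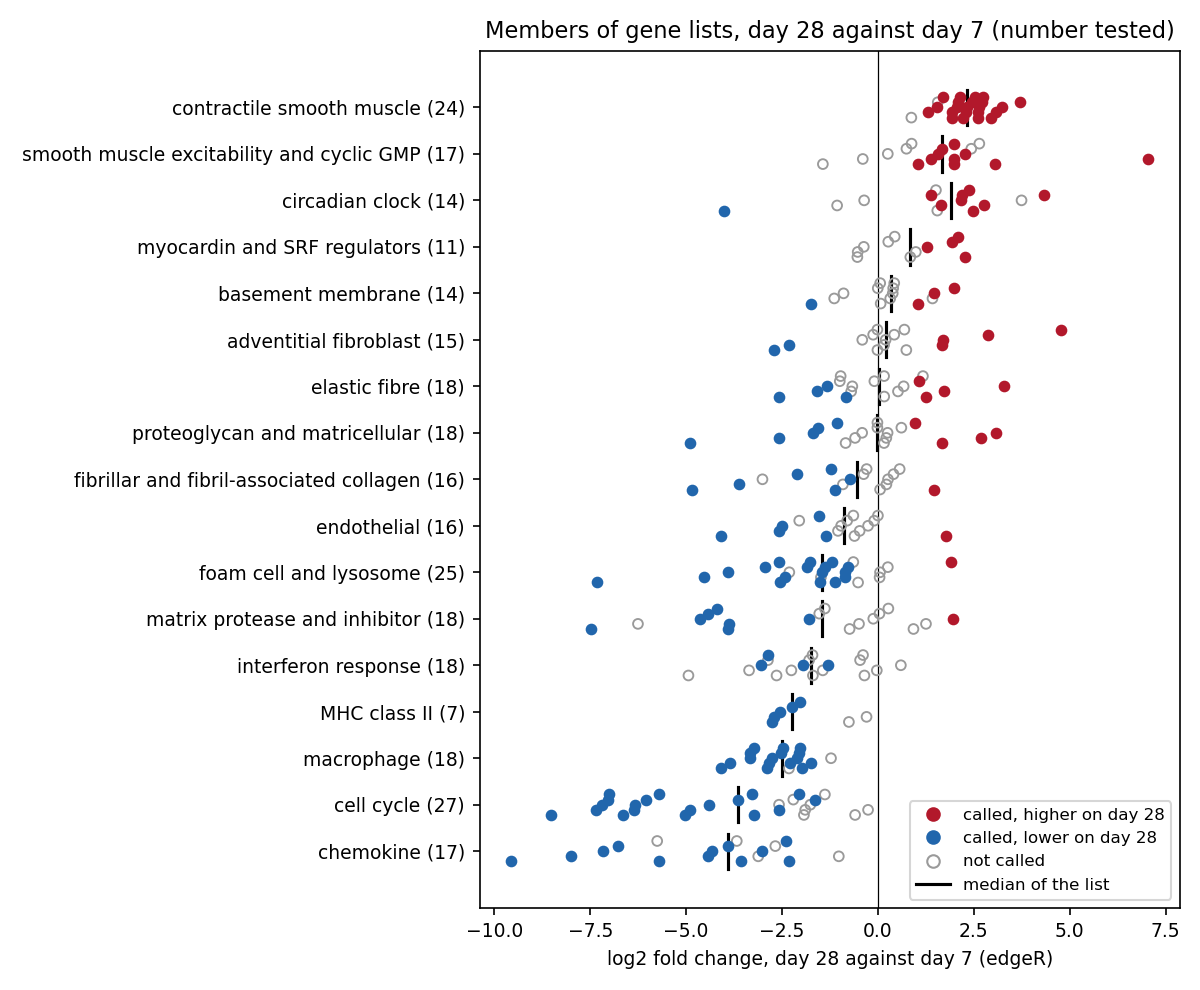
Log2 fold change of day 28 against day 7 (horizontal axis) of each tested member of 17 gene lists (rows, with the number tested), filled where called and open where not, with a black bar at the list's median. In the contractile smooth muscle row all but 2 points are called higher, and in the macrophage row all but 2 are called lower.

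SRF binds the CArG box, a motif of 10 bases, and this motif was looked for on both strands in the promoters of the contractile genes, from 250 bases before to 50 after each start (RefSeq, mouse build GRCm38.p6). Of 20 contractile genes with a promoter in the table, 2 (10%) held it, Myl9 and Vcl, beside 1.65% of 8168 tested genes and 3.59% of 502 genes called higher. The promoter of Myl9 (chr2:156775214-156775513, plus strand) is shown because the gene rose strongly and holds the motif, whose 10 bases are in capitals and begin 161 bases before the start.
Myl9: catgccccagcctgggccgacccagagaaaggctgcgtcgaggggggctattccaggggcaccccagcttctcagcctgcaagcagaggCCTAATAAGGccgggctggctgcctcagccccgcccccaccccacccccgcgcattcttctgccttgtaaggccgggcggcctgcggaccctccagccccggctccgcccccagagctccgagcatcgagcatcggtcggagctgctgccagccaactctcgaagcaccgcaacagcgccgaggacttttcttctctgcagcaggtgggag
A match describes the letters in this window and says nothing of whether the factor bound there.

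Ion handling and relaxation genes of smooth muscle moved in the same direction. Of 17 genes tested, 10 were called higher (58.8%, beside 6.4% of all genes) and 0 lower, with a median log2 fold change of 1.68. Their sum was 619.7, 513.9, 394.7 and 1072 CPM on day 7 and 2179, 2049 and 2060 CPM on day 28, so that every day 28 library exceeded every day 7 library. Atp2a2, the SERCA pump that returns calcium to the store, had 110.4, 117, 112 and 108 CPM on day 7 and 382, 263 and 236 CPM on day 28 (log2 fold change 1.39 ± 0.26, adjusted p = 6.81e-04). Pln, phospholamban, the inhibitor of that pump, had no count in any day 7 library and 28.7, 8.27 and 40 CPM on day 28, at least 4.29-fold higher against a floor of 3 counts per library (adjusted p = 0.00687). Pde5a, which degrades cyclic GMP, had 49.9, 34.1, 17.9 and 17.8 CPM and 99.1, 97.6 and 158 CPM (log2 fold change 1.97 ± 0.36, adjusted p = 6.31e-04), and the days did not overlap. Prkg1, the cyclic GMP-dependent kinase, had 3.56, 7.19, 0 and 9.69 CPM and 35.9, 48 and 17.6 CPM and was not called (adjusted p = 0.0863), although it was with libraries thinned to equal depth (adjusted p = 0.0332). The number called higher was 5, of 12 tested, when day 7 and day 28 were fitted alone. Exons of Pln overlap those of Cep85l on the opposite strand.

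Regulators around SRF rose in part. Of 11 tested, 4 were called higher (36.4%, beside 6.4% of all genes) and 0 lower, with a median log2 fold change of 0.845, and without day 28 replicate 2 the count was 2. Srf itself had 12.5, 34.1, 29.9 and 4.84 CPM on day 7 and 30.2, 24.8 and 27.2 CPM on day 28, values that overlapped (log2 fold change 0.44 ± 0.70, adjusted p = 0.744), and Myocd, myocardin, was below the filter on low counts. Mef2c, a MADS-box factor that acts with myocardin, had 21.4, 30.6, 17.9 and 71 CPM and 168, 114 and 238 CPM (log2 fold change 2.28 ± 0.41, adjusted p = 4.94e-04). Tead3, a factor of the Hippo pathway, had 23.1, 26.9, 15.9 and 14.5 CPM and 94.8, 112 and 52.7 CPM (log2 fold change 2.10 ± 0.41, adjusted p = 0.00103). Both were higher in every day 28 library than in any day 7 library. Among genes outside the lists, Smarcd3, a subunit of the SWI/SNF chromatin remodelling complex, had the second smallest p of all genes in the comparison, with 44.5, 30.6, 25.9 and 40.4 CPM on day 7 and 246, 202 and 256 CPM on day 28 (log2 fold change 2.72 ± 0.27, adjusted p = 1.12e-06). Its exons overlap those of Chpf2 on the opposite strand.

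Macrophage genes fell together. Of 18 tested, 16 (88.9%) were called lower on day 28 and 0 higher, beside 8.05% of all genes called lower, with a median log2 fold change of -2.5. Their sum was 6095, 8780, 6818 and 7116 CPM on day 7 and 1079, 1052 and 1441 CPM on day 28, with every day 28 library far below every day 7 library. It was 193.7 to 610.4 CPM on day 0, below all 3 day 28 libraries. The count came to 17 with day 7 replicate 4 left out and 15 with day 28 replicate 1 left out.

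Lyz2, lysozyme, the most abundant of the list, had 2185, 2988, 2538 and 3033 CPM on day 7 and 300.2, 389 and 497 CPM on day 28 (log2 fold change -2.76 ± 0.46, adjusted p = 2.52e-04). The complement component C1q, which resident macrophages secrete, fell in all 3 of its chains. C1qa had 422, 737, 444 and 489 CPM and 122, 86 and 168 CPM (log2 fold change -2.06 ± 0.44, adjusted p = 0.00276), C1qb fell by 2.11 ± 0.42 on the log2 scale (adjusted p = 0.00124) and C1qc fell by 2.29 ± 0.44 (adjusted p = 0.00101). Cd68, a lysosomal membrane glycoprotein, fell from 189, 278, 169 and 236 CPM to 7.18, 26.5 and 4.79 CPM (log2 fold change -4.09 ± 0.66, adjusted p = 2.13e-04). Ctss, the cathepsin of antigen processing, had 580.5, 613, 468 and 471 CPM on day 7 and 46, 3.31 and 59.1 CPM on day 28, with replicate 2 lowest (log2 fold change -3.87 ± 0.58, adjusted p = 1.14e-04). Csf1r, the receptor on which macrophages depend for survival, fell from 166, 255, 152 and 171 CPM to 46, 62.9 and 57.5 CPM (log2 fold change -1.74 ± 0.42, adjusted p = 0.0063). Aif1, an actin-bundling protein of activated macrophages, had 130.0, 199.5, 235 and 116 CPM and 15.8, 14.9 and 19.2 CPM (log2 fold change -3.34 ± 0.44, adjusted p = 2.72e-05), and Mpeg1, a pore-forming protein of phagosomes, had 203, 349, 253 and 231 CPM and 30.2, 13.2 and 65.5 CPM (log2 fold change -2.83 ± 0.46, adjusted p = 2.95e-04). In none of these genes did the days overlap. Of the rest, Adgre1, which encodes F4/80, was not called, with 55.2, 117, 71.8 and 29.1 CPM on day 7 and 10.1, 0 and 30.4 CPM on day 28 (adjusted p = 0.0569). It passed the threshold without day 28 replicate 3 (adjusted p = 0.02) and without day 7 replicate 4 (adjusted p = 0.0389), and DESeq2 and limma-voom called it (adjusted p = 0.0281 and 0.0393). Cd14, the lipopolysaccharide coreceptor, was not called either, with 90.8, 111, 39.9 and 38.8 CPM and 15.8, 29.8 and 44.7 CPM (adjusted p = 0.201).

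The sequence GAGGAAGT, a form of the site of the myeloid factor PU.1, was looked for on both strands in the same windows. It occurred in 2 of the 13 macrophage genes with a promoter in the table (15.4%), Ctss and C1qc, beside 3.77% of all tested genes and 7.48% of 642 genes called lower. Both promoters are shown because these genes fell and hold the motif, which lies on the reverse strand and reads as its reverse complement in capitals. It begins 2 bases before the start of Ctss (chr3:95526536-95526835, plus strand) and 195 bases before that of C1qc (chr4:136892865-136893164, minus strand), in GRCm38.p6.
Ctss: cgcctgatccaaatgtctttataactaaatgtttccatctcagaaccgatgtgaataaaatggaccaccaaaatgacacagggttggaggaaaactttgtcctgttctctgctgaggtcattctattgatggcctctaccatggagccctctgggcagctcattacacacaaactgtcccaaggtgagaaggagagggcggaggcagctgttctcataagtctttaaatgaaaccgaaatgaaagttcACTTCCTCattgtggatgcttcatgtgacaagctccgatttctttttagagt
C1qc: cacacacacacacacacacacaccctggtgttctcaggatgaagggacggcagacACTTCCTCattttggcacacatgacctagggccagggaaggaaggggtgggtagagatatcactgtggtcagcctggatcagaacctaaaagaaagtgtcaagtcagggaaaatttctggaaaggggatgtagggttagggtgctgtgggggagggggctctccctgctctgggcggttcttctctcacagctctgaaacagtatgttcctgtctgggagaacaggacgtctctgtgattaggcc
These windows were read for these letters only, and no binding was measured. GAGGAAGT also occurred in 2 of the 20 contractile genes (10%). The CArG box occurred in 1 of the 13 macrophage genes (7.69%). Each motif thus occurred in both lists, and counts of 1 or 2 genes cannot show whether it is particular to either.

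**Figure D3:**
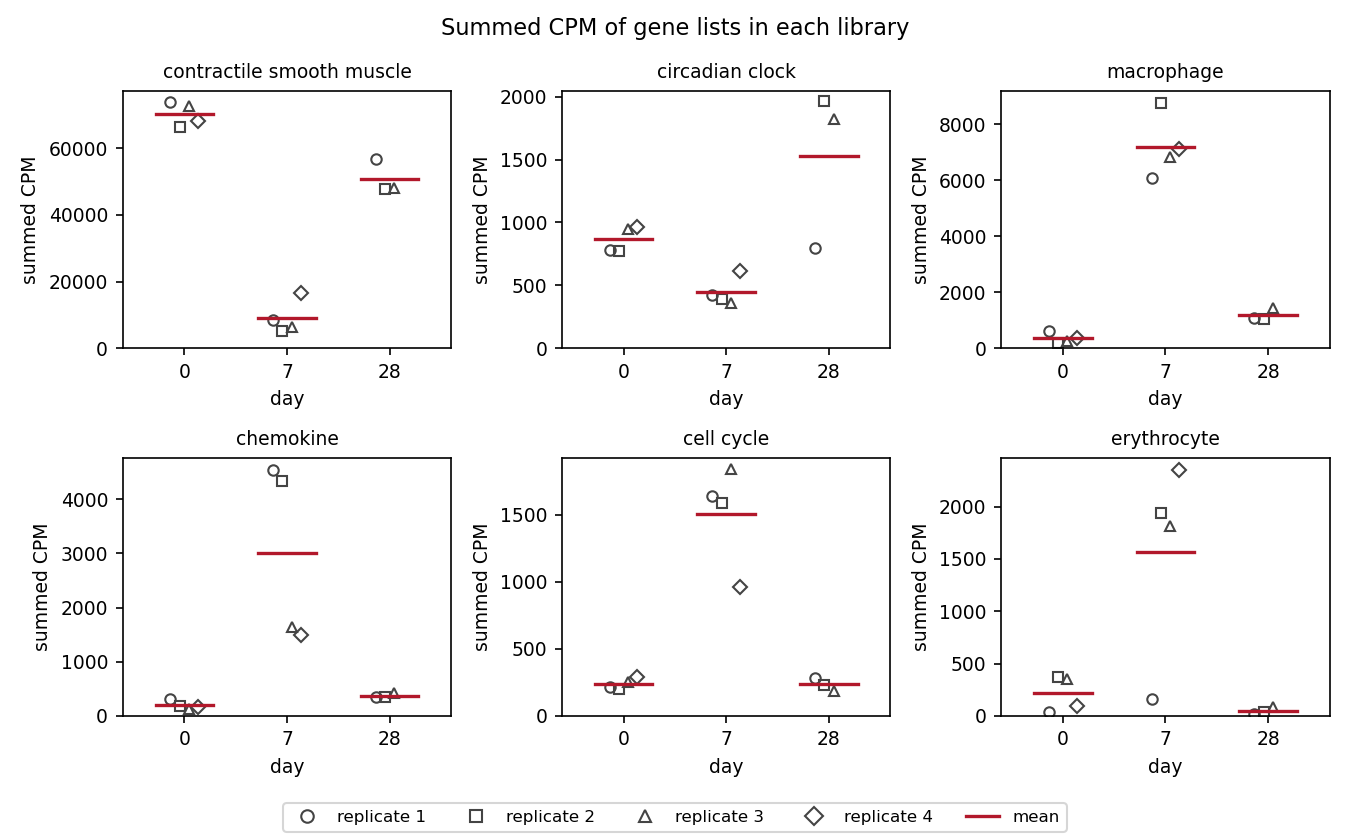
Summed CPM (vertical axis, from 0) of 6 gene lists in each library of days 0, 7 and 28, with 1 symbol per library and a red bar at the mean of the day. On day 28 the contractile smooth muscle sum lies between the day 7 and day 0 values, and the macrophage, chemokine and cell cycle sums lie far below those of day 7.

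Genes of lipid-laden macrophages and lysosomes followed, with 17 of 25 tested called lower (68.0%, beside 8.05% of all genes) and 1 higher (4%, beside 6.4%). Their median log2 fold change was -1.47. Spp1, osteopontin, had 2806, 2031, 387 and 932 CPM on day 7 and 168, 119 and 19.2 CPM on day 28, with a wide spread in both groups and no overlap (log2 fold change -3.91 ± 0.78, adjusted p = 0.00138). Lgals3, galectin-3, had 741, 742, 460.5 and 904 CPM and 129, 36.4 and 112 CPM (log2 fold change -2.94 ± 0.42, adjusted p = 6.81e-05). The scavenger receptor Cd36, which takes up oxidised lipoproteins, had 73, 89.8, 95.7 and 199 CPM on day 7 and 1.44, 0 and 0 CPM on day 28, that is 1 read over 3 libraries (adjusted p = 2.47e-04). Fabp5, a fatty acid carrier, had 201, 214, 89.7 and 321 CPM and 14.4, 0 and 11.2 CPM (log2 fold change -4.54 ± 0.69, adjusted p = 1.16e-04). Of the lysosomal proteases, Ctsb had 1982, 2882, 2390 and 2478 CPM and 768, 685 and 1101 CPM (log2 fold change -1.51 ± 0.26, adjusted p = 4.11e-04), and Ctsd had 2397, 3317, 2265 and 5675 CPM and 1097, 1168 and 1676 CPM (log2 fold change -1.38 ± 0.31, adjusted p = 0.00425). The one member higher on day 28 was Fabp4, a fatty acid carrier that endothelial cells and adipocytes also express, with 65.9, 59.3, 41.9 and 181 CPM and 414, 246 and 334 CPM (log2 fold change 1.92 ± 0.36, adjusted p = 8.40e-04). Outside the list, Ftl1, the ferritin light chain that stores iron, had 2201, 2144, 1714 and 4115 CPM on day 7 and 457, 443 and 636 CPM on day 28 (log2 fold change -2.31 ± 0.30, adjusted p = 2.34e-05), while Fcgr3, a receptor for the Fc part of immunoglobulin G, had 240.4, 257, 213 and 239 CPM and 35.9, 29.8 and 35.1 CPM (log2 fold change -2.81 ± 0.35, adjusted p = 2.31e-05). With day 7 and day 28 fitted alone the number of foam cell and lysosome genes called lower was 11, without day 28 replicate 2 it was 9 and without day 7 replicate 2 it was 11. An exon of Spp1 overlaps that of Gm42793 on the same strand.

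SEM cells are described as a modulated state derived from smooth muscle, an origin that the study could not determine without lineage tracing. Of 5 markers that the study names for them 4 were called lower (80%, beside 8.05% of all genes), namely Lgals3, Fn1, Col1a1 and Cebpb. The sum of the 5 was 12690, 15630, 16330 and 18220 CPM on day 7 and 7860, 7406 and 9805 CPM on day 28. It was higher still on day 14 (20790 to 33760 CPM) and day 21 (23590 to 46940 CPM). That rise lay in the matrix genes. On days 7, 14 and 21 the means were 6981, 11657 and 18300 CPM for Col1a1 and 4295, 8940 and 12717 CPM for Col1a2. For Fn1 they were 3525, 4921 and 3998 CPM. Lgals3 fell instead, with means of 712, 243 and 160 CPM. Cebpb also fell in its means (203, 104 and 76.5 CPM), but its values overlapped between these days. For the SEM marker genes from its single-cell data, the study reports the strongest signature in this tissue at the earliest time after injury. It describes that signature as weaker later and nearly gone at the latest time. The study took the markers summed here from earlier work on atherosclerotic lesions and shows them in single cells of injured carotids. Col1a2 was the member not called, with 3380, 4104, 4437 and 5260 CPM on day 7 and 3076, 3508 and 3931 CPM on day 28 (adjusted p = 0.471). The call of Cebpb, a leucine zipper factor of inflammation, was lost without day 28 replicate 1 or 3 and without day 7 replicate 1 or 2 (adjusted p = 0.0948, 0.186, 0.183 and 0.169), and neither limma-voom nor a fit of the 2 days alone called it (adjusted p = 0.072 and 0.138). It had 328, 316, 83.7 and 85.6 CPM on day 7 and 74.7, 114 and 38.4 CPM on day 28, and its exons overlap those of Peds1 on the opposite strand.

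Chemokine genes fell steeply. Of 17 tested, 12 (70.6%) were called lower and 0 higher, beside 8.05% of all genes called lower. The median log2 fold change was -3.91, or -3.56 with the 3 members without a day 28 read set at their bound. Their sum was 4542, 4331, 1649 and 1495 CPM on day 7 and 340.4, 347.3 and 426.6 CPM on day 28, with replicates 1 and 2 of day 7 well above replicates 3 and 4. Ccl7, which draws monocytes through the receptor CCR2, had 290.2, 243, 51.8 and 6.46 CPM on day 7 and no read in any day 28 library, at least 29.8-fold lower against a floor of 3 counts per library (adjusted p = 0.00456). Ccl2, the principal ligand of the same receptor, had 545, 415, 297 and 9.69 CPM on day 7, with replicate 4 far below the rest, and 2.87, 0 and 0 CPM on day 28 (adjusted p = 3.96e-04, or 0.0896 by limma-voom). Pf4, platelet factor 4, which tissue macrophages also express, had 265, 339.6, 134 and 148 CPM and 10.1, 1.65 and 0 CPM (log2 fold change -5.70 ± 0.69, adjusted p = 1.61e-05). Cxcl12, the ligand of CXCR4 made by stromal cells, had 1652, 1517, 399 and 748 CPM and 144, 225 and 246 CPM (log2 fold change -2.40 ± 0.38, adjusted p = 1.56e-04), and Cxcl16 had 194, 226, 112 and 123 CPM and 27.3, 36.4 and 35.1 CPM (log2 fold change -2.31 ± 0.38, adjusted p = 2.47e-04). All 5 genes separated the days. Cxcl5, a neutrophil attractant outside the list, had 223, 243, 9.97 and 9.69 CPM on day 7 and no read on day 28, at least 24.4-fold lower (adjusted p = 0.00307). Cx3cl1, fractalkine, was not called, with 146, 140.2, 81.7 and 148 CPM and 68.9, 66.2 and 55.9 CPM (adjusted p = 0.108). limma-voom called 7 of the list lower and left out Ccl2 (adjusted p = 0.0896), and edgeR without day 28 replicate 2 called 7.

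Of 5 neutrophil genes tested, 2 were called lower (40%, beside 8.05% of all genes) and 0 higher. Both had no read on day 28, so they passed the filter on low counts through other days. The count of lower genes was 4 by limma-voom or with no filter on low counts and 3 with the replicate block or without day 28 replicate 3. It was 1 without day 28 replicate 2, and 0 of the 3 that passed a filter of 10 counts in 7 libraries. Csf3r, the receptor for the growth factor of granulocytes, had 39.2, 43.1, 45.9 and 32.3 CPM on day 7 and no read on day 28, at least 8.08-fold lower (adjusted p = 5.27e-04). Mmp9, the gelatinase of neutrophil granules, had 19.6, 53.9, 59.8 and 6.46 CPM on day 7 and no read on day 28, at least 7.04-fold lower (adjusted p = 0.0195), and it lost its call when day 28 replicate 2 or 3 was left out (adjusted p = 0.0575 and 0.0565). The granule proteins S100a8 and S100a9 were not called by edgeR, but limma-voom called both (adjusted p = 0.016 and 0.0426), as did edgeR with no filter on low counts (adjusted p = 6.24e-05 and 0.00417), and the replicate block called S100a8 (adjusted p = 0.0384). S100a8 had 331, 104, 199 and 95.2 CPM on day 7 and 0, 0 and 133 CPM on day 28 (adjusted p = 0.28), so that replicate 3 of day 28 lay within the day 7 range and the other two had no read. Without that library the adjusted p was 0.0127 for S100a8 and 0.0296 for S100a9. The defining marker Ly6g had no count in any library of either day.

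Some antigen-presenting genes of MHC class II and some interferon-stimulated genes were called lower, with counts that hung on single libraries. Of 7 MHC class II genes, 5 were called lower (71.4%, beside 8.05% of all genes) and 0 higher, but DESeq2 called 1, and edgeR called 2, 0 and 1 without day 28 replicates 1, 2 and 3 and 0, 1 and 3 without day 7 replicates 1, 2 and 3. H2-Aa had 566, 812, 347 and 336 CPM on day 7 and 128, 114 and 136 CPM on day 28 (log2 fold change -2.03 ± 0.68, adjusted p = 0.044). Its call was lost without any of the 7 libraries but day 7 replicate 4, with adjusted p up to 0.131 without day 7 replicate 2, and DESeq2 did not call it (adjusted p = 0.0946), although the days did not overlap. Cd74, the invariant chain that escorts these molecules, was more abundant and not called, with 1065, 1650, 1160 and 1114 CPM and 602, 896 and 718 CPM (adjusted p = 0.347). Of 18 interferon-stimulated genes, 4 were called lower (22.2%, beside 8.05% of all genes) and 0 higher, with a median log2 fold change of -1.75, or -1.70 with the member without a day 28 read at its bound. The count was 1 without day 28 replicate 2, 2 without day 28 replicate 3, 1, 1 and 2 without day 7 replicates 1, 2 and 3, and 9 with no filter on low counts. Markers of T, B and NK cells were low, and of the 3 tested edgeR called 0 (1 lower at an unadjusted p under 0.05, and 1 lower by DESeq2 and by limma-voom).

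Genes of the cell cycle fell as a group. Of 27 tested, 19 (70.4%) were called lower and 0 higher, beside 8.05% of all genes called lower. The median log2 fold change was -3.64, or -2.58 with the 6 members without a day 28 read at their bound. The sum was 1642, 1589, 1840 and 957.3 CPM on day 7 and 280.1, 233.2 and 188.6 CPM on day 28, beside 197.2 to 290.0 CPM on day 0. Mki67, the marker of dividing cells, had 89, 102, 102 and 61.4 CPM on day 7 and 7.18, 0 and 0 CPM on day 28 (log2 fold change -5.02 ± 0.93, adjusted p = 6.92e-04). Ube2c, a ubiquitin-conjugating enzyme of mitotic exit, had 89, 97, 119.6 and 61.4 CPM and 0, 0 and 1.6 CPM, that is 1 read over the 3 day 28 libraries (adjusted p = 2.75e-05). Cdc20, the activator of the anaphase-promoting complex, had 92.6, 70.1, 93.7 and 32.3 CPM on day 7 and no read on day 28, at least 14.5-fold lower (adjusted p = 4.58e-04). In each of these genes day 7 replicate 4 was the lowest of its day. Stmn1, a microtubule destabiliser, had 126, 113, 97.7 and 108 CPM and 10.1, 0 and 16 CPM (log2 fold change -3.64 ± 0.68, adjusted p = 7.43e-04). The replication clamp Pcna, which cells outside the cycle also use for repair, fell from 132, 113, 142 and 42 CPM to 38.8, 34.7 and 28.8 CPM (log2 fold change -1.64 ± 0.42, adjusted p = 0.00893). Mcm6, a subunit of the replicative helicase, was not called, with 73, 77.3, 114 and 66.2 CPM and 67.5, 39.7 and 55.9 CPM (adjusted p = 0.449). With only genes of at least 10 counts in 7 libraries kept, 15 of the list were tested and 8 called. Exons of Ube2c and Cdc20 overlap those of Tnnc2 and Elovl1 on the opposite strand.

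Matrix genes did not move as one. Of 16 genes of fibrillar and fibril-associated collagens, 6 were called lower (37.5%, beside 8.05% of all genes) and 1 higher (6.25%, beside 6.4%), with a median log2 fold change of -0.55. Col1a1, the α1 chain of type I collagen, had 5249, 7163, 7707 and 7804 CPM on day 7 and 2719, 2550 and 3717 CPM on day 28 (log2 fold change -1.22 ± 0.29, adjusted p = 0.00546). The days did not overlap, yet the level of day 7 was not the highest of the series: Col1a1 had 11657 ± 3290 CPM on day 14 (mean ± SD, n = 3) and 18300 ± 6790 CPM on day 21 (n = 4), and day 28 was lower than day 21 by 2.61 ± 0.31 on the log2 scale (adjusted p = 7.97e-05). Col3a1, the chain of type III collagen, overlapped between day 7 and day 28, with 2575, 3517, 2249 and 3621 CPM and 2409, 2248 and 2275 CPM (adjusted p = 0.273), while day 28 was lower than day 21 by 1.45 ± 0.22 on the log2 scale (adjusted p = 0.00128). Cthrc1, a secreted protein of collagen-producing cells in injured arteries that was counted with the matricellular genes below, had 48.1, 102, 144 and 35.5 CPM on day 7 and 7.18, 0 and 0 CPM on day 28 (log2 fold change -4.91 ± 0.93, adjusted p = 8.40e-04). Col5a3, a chain of type V collagen, fell from 24.9, 79.1, 277 and 51.7 CPM to 10.1, 0 and 0 CPM (log2 fold change -4.85 ± 1.14, adjusted p = 0.00508). Fn1, fibronectin, also a matricellular gene, had 2993, 3301, 3644 and 4164 CPM and 1861, 1197 and 2007 CPM (log2 fold change -1.06 ± 0.22, adjusted p = 0.00212), with no overlap. The one collagen called higher was Col14a1, which binds to collagen fibrils, with 28.5, 79.1, 29.9 and 77.5 CPM on day 7 and 161, 134 and 157 CPM on day 28 (log2 fold change 1.47 ± 0.35, adjusted p = 0.00545).

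The elastic fibre genes went both ways, with 4 of 18 called higher (22.2%, beside 6.4% of all genes) and 4 lower (22.2%, beside 8.05%). The latent TGF-β binding protein Ltbp4, which is needed for the assembly of elastic fibres, stood out by size, with 89, 95.2, 81.7 and 346 CPM on day 7 and 1636, 1447 and 1443 CPM on day 28 (log2 fold change 3.29 ± 0.38, adjusted p = 8.93e-06). Replicate 4 was the highest of day 7 and still far below day 28. Ltbp1, which holds latent TGF-β in the matrix, had 290.2, 244, 162 and 439 CPM and 1117, 882 and 799 CPM (log2 fold change 1.71 ± 0.30, adjusted p = 4.04e-04). Lower on day 28 were Fbln2, fibulin-2, from 946, 1159, 686 and 694 CPM to 155, 179 and 102 CPM (log2 fold change -2.58 ± 0.27, adjusted p = 2.16e-06), and Lox, the lysyl oxidase that crosslinks elastin and collagen, from 1255, 679, 688 and 1361 CPM to 566, 329 and 291 CPM (log2 fold change -1.33 ± 0.30, adjusted p = 0.00343). Fbln2 had the smallest p of all genes called lower in the comparison. Eln, elastin, could not be ordered: it had 8009, 4268, 2823 and 28340 CPM on day 7 and 7644, 2972 and 5748 CPM on day 28 (log2 fold change -0.99 ± 0.48, adjusted p = 0.184), while its sign turned without day 7 replicate 4, to 0.12 (adjusted p = 0.861). Without that library 7 elastic fibre genes were called higher and 3 lower, and 2 were called higher without day 28 replicate 3 or without day 7 replicate 1, 2 or 3. Called lower were 2 without day 28 replicate 2 or day 7 replicate 2.

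Of 14 basement membrane genes, 3 were called higher (21.4%, beside 6.4% of all genes) and 1 lower (7.14%, beside 8.05%). Lamb2, the laminin β2 chain of contractile muscle, had 158, 70.1, 97.7 and 504 CPM on day 7 and 948, 776 and 733 CPM on day 28 (log2 fold change 1.97 ± 0.42, adjusted p = 0.00248), while Col18a1 had 899, 624, 1710 and 3050 CPM and 4342, 4217 and 4442 CPM (log2 fold change 1.46 ± 0.38, adjusted p = 0.01). Both were lowest in replicate 2 on day 7 and highest in replicate 4, which lay below every day 28 library. The proteoglycans and matricellular proteins were again mixed, with 4 of 18 higher (22.2%, beside 6.4% of all genes) and 5 lower (27.8%, beside 8.05%). The count of lower genes was 3 without day 28 replicate 2 or 3. Ogn, osteoglycin, a small leucine-rich proteoglycan of the quiescent wall, had 69.4, 68.3, 93.7 and 140.5 CPM on day 7 and 812, 820.3 and 722 CPM on day 28, close to its day 0 level of 811 ± 103 CPM (log2 fold change between day 28 and day 7 3.07 ± 0.31, adjusted p = 1.83e-06). Prelp, of the same family, had 223, 113, 67.8 and 405 CPM and 664, 559 and 706 CPM (log2 fold change 1.66 ± 0.36, adjusted p = 0.00276). Comp, cartilage oligomeric matrix protein, had 14.2, 41.3, 3.99 and 82.3 CPM and 172, 316 and 214 CPM (log2 fold change 2.69 ± 0.61, adjusted p = 0.00413), above its day 0 level of 33.6 ± 29.9 CPM. Thbs1, thrombospondin-1, which activates latent TGF-β, fell from 418, 600.2, 911 and 287 CPM to 221, 26.5 and 27.2 CPM (log2 fold change -2.58 ± 0.60, adjusted p = 0.00503). Exons of Ogn overlap those of Cenpp on the opposite strand.

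Of 18 proteases and their inhibitors, 7 were called lower (38.9%, beside 8.05% of all genes) and 1 higher (5.56%, beside 6.4%), or 8 and 3 without day 7 replicate 4. Timp1, the inhibitor of metalloproteinases that injured and inflamed tissue induces, had 2776, 1252, 847 and 770.1 CPM on day 7 and 105, 59.5 and 121 CPM on day 28 (log2 fold change -3.88 ± 0.51, adjusted p = 2.58e-05). Replicate 1 was the highest of day 7, and every day 7 library was far above every day 28 library. Plaur, the receptor of urokinase, had 125, 126, 73.8 and 59.7 CPM and 14.4, 0 and 0 CPM (log2 fold change -4.20 ± 0.80, adjusted p = 8.71e-04), and Plau, urokinase, had 42.7, 46.7, 181 and 75.9 CPM and 14.4, 1.65 and 0 CPM (log2 fold change -3.92 ± 0.90, adjusted p = 0.00435). Mmp14, the membrane-bound collagenase, fell from 166, 334, 162 and 157 CPM to 71.8, 64.5 and 40 CPM (log2 fold change -1.79 ± 0.41, adjusted p = 0.00456), and Adam8 from 217, 174, 83.7 and 173 CPM to 0, 0 and 22.4 CPM (log2 fold change -4.43 ± 0.94, adjusted p = 0.00238). Serpine2, protease nexin-1, was the member called higher, with 465, 341, 166 and 956 CPM on day 7 and 2084, 1856 and 1660 CPM on day 28 (log2 fold change 1.95 ± 0.34, adjusted p = 3.77e-04). Mmp2, the gelatinase of mesenchymal cells, was not called, with 248, 543, 307 and 447 CPM and 244, 225 and 225 CPM (adjusted p = 0.104).

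Sost, sclerostin, an antagonist of Wnt signalling, had the largest log2 fold change of the genes called higher that had a mean above 100 CPM on day 28. It had 7.12, 1.8, 7.97 and 51.7 CPM on day 7 and 1212, 792 and 716 CPM on day 28 (log2 fold change 5.66 ± 0.74, adjusted p = 2.72e-05). It was 227 ± 166 CPM on day 14 (mean ± SD, n = 3), 651 ± 413 CPM on day 21 (n = 4) and 1583 ± 474 CPM on day 0 (n = 4). Sost was tested in a list of 13 chondrogenic and mineralization genes, of which 2 were called higher (15.4%, beside 6.4% of all genes), or 4 without day 7 replicate 4, and 0 lower. The other was Alpl, the phosphatase that removes the inhibitor of mineralization, with 1.78, 0, 0 and 0 CPM on day 7 and 7.18, 39.7 and 36.8 CPM on day 28 (adjusted p = 0.00419). The cartilage collagen Col2a1 had 90.8, 75.5, 67.8 and 67.8 CPM on day 7 and 1.44, 126 and 0 CPM on day 28, that is, all but 1 of its day 28 reads were in replicate 2 (adjusted p = 0.745). Mgp, matrix Gla protein, an inhibitor of calcification, was abundant on both days, with 17040, 10910, 3116 and 29910 CPM and 22300, 22940 and 24870 CPM (log2 fold change 0.62 ± 0.37, adjusted p = 0.298), and it was called higher without day 7 replicate 4 (log2 fold change 1.18, adjusted p = 0.0162).

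**Figure D4:**
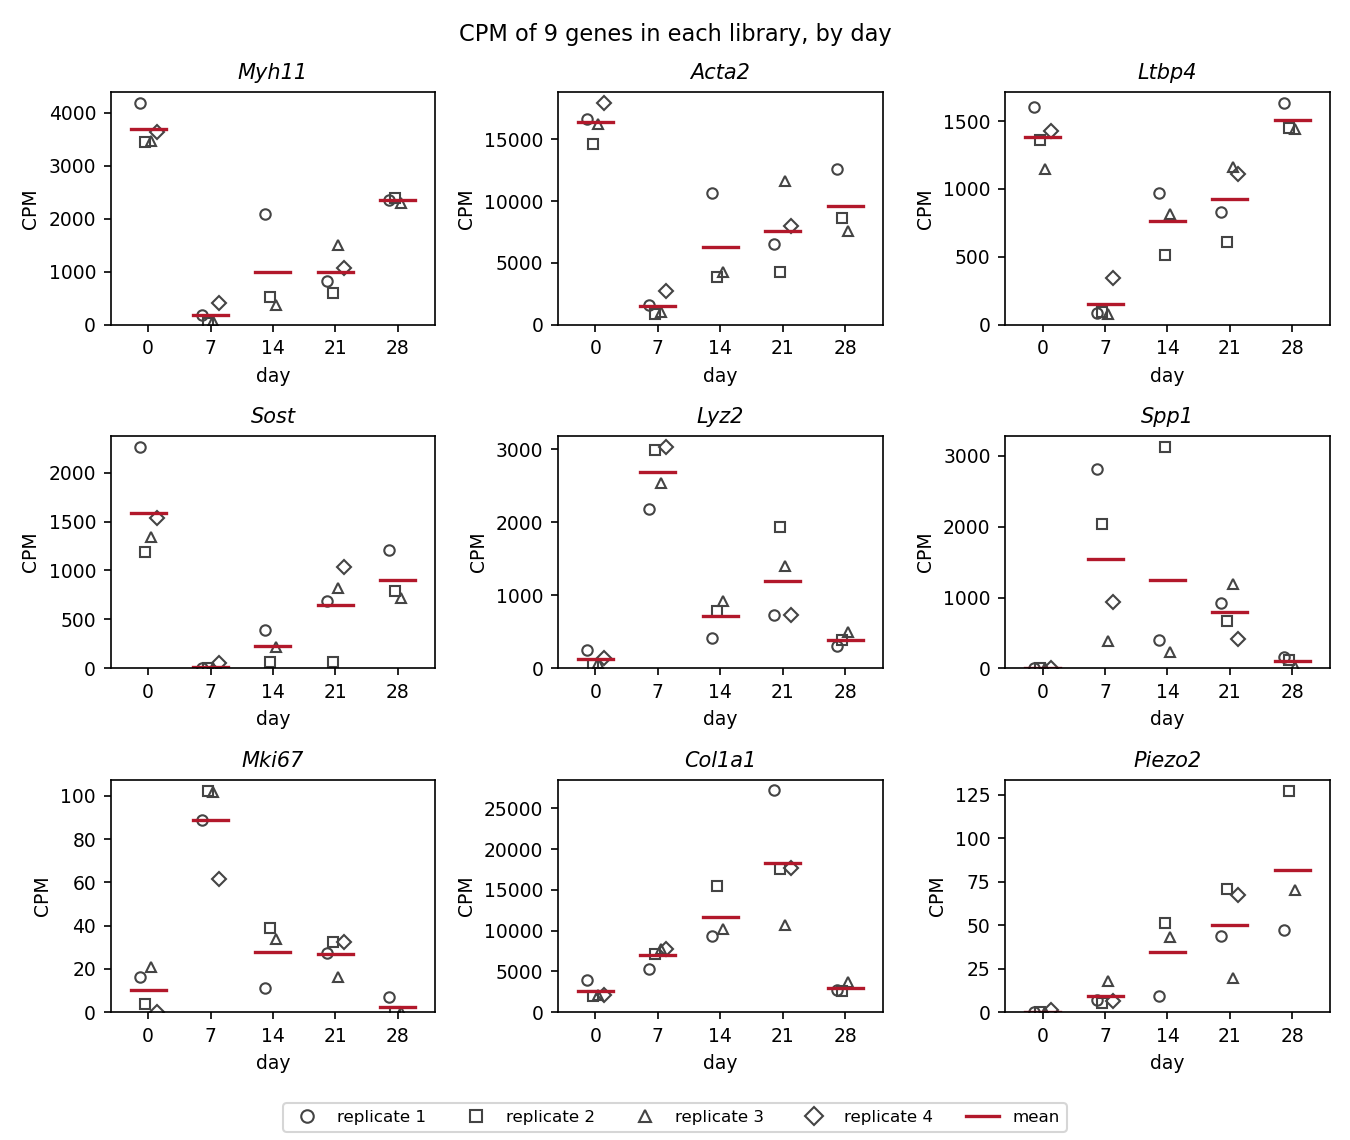
CPM (vertical axis, from 0) of 9 genes in each library by day (horizontal axis), with 1 symbol per library and a red bar at the mean of the day. Myh11, Acta2, Ltbp4 and Sost are lowest on day 7 and high on day 28; Lyz2 and Mki67 are highest on day 7, Col1a1 on day 21, and Piezo2 has its highest mean on day 28.

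Markers of other cells that the dissected wall can hold were counted in the same way. Of 16 endothelial genes, 5 were called lower (31.2%, beside 8.05% of all genes) and 1 higher (6.25%, beside 6.4%). The count of lower genes was 3 with day 28 replicate 2, day 28 replicate 3 or day 7 replicate 3 left out. Cdh5, the cadherin of endothelial junctions, had 126, 147, 464 and 263 CPM on day 7 and 38.8, 62.9 and 30.4 CPM on day 28 (log2 fold change -2.50 ± 0.46, adjusted p = 6.59e-04), while Cd93 had 232, 399, 774 and 426 CPM and 33, 79.4 and 117 CPM (log2 fold change -2.58 ± 0.54, adjusted p = 0.00203). Replicate 3 was the highest of day 7 in both. Pecam1, which endothelial cells share with leukocytes and platelets, had 290.2, 404, 1029 and 954 CPM and 576, 653 and 779.8 CPM and no direction (log2 fold change 0.00075 ± 0.36, adjusted p = 0.999), with the sign turning in 5 alternatives. The endothelial sum was 1362, 1651, 3921 and 3385 CPM on day 7 and 1318, 1485 and 1649 CPM on day 28, so replicates 3 and 4 of day 7 stood above the rest and replicates 1 and 2 overlapped day 28.

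Of 15 genes of adventitial fibroblasts, 4 were called higher (26.7%, beside 6.4% of all genes) and 2 lower (13.3%, beside 8.05%). The count of lower genes was 1 with day 28 replicate 1 or 2 or day 7 replicate 1 or 2 left out. Clec3b had 3.56, 8.98, 9.97 and 46.8 CPM on day 7 and 149, 142 and 106 CPM on day 28 (log2 fold change 2.88 ± 0.53, adjusted p = 6.87e-04), Pi16 had 46.3, 61.1, 41.9 and 166 CPM and 215, 263 and 292 CPM (log2 fold change 1.69 ± 0.42, adjusted p = 0.00826), and Gsn, gelsolin, had 253, 271, 241 and 400.4 CPM and 895, 786 and 1111 CPM (log2 fold change 1.67 ± 0.30, adjusted p = 5.92e-04). The general fibroblast gene Pdgfra was not called, with 46.3, 84.5, 9.97 and 24.2 CPM and 34.5, 38 and 20.8 CPM (adjusted p = 0.677). Ly6a, Sca-1, a marker of progenitor-like stromal cells, went the other way, with 625, 394, 345 and 518 CPM on day 7 and 128, 82.7 and 71.9 CPM on day 28 (log2 fold change -2.32 ± 0.35, adjusted p = 1.14e-04). The list's sum was 2719, 2999, 2061 and 3280 CPM on day 7 and 3305, 3197 and 3926 CPM on day 28, and its part in the matrix results was not tested.

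Adipocyte and blood genes were spread unevenly over the libraries of a day. Of 3 adipocyte genes tested, 2 were called higher (66.7%, beside 6.4% of all genes), Cfd (adipsin) and Car3. Cfd had no read on day 7 and 93.3, 0 and 102 CPM on day 28, and Car3 had 0, 5.39, 0 and 0 CPM and 124, 0 and 123 CPM, so that replicate 2 of day 28 had none of either. limma-voom called neither of them (adjusted p = 0.0837 and 0.114). Of 6 Schwann cell genes 1 was called lower (16.7%, beside 8.05% of all genes) and 0 higher (1 by DESeq2 and by limma-voom). The count of lower genes was 0 with day 28 replicate 2 or 3 or day 7 replicate 1, 2 or 3 left out. Of 2 skeletal muscle genes tested 0 were called by edgeR, DESeq2 or limma-voom, with 0 at an unadjusted p under 0.05. Of the Schwann cell genes, 2 were higher at an unadjusted p under 0.05. Where any list but this and that of T, B and NK cells had 0 members called in a direction, 0 passed an unadjusted p of 0.05 in it either. Of 5 erythrocyte genes 4 were called lower by edgeR (80%, beside 8.05% of all genes) and 1 by limma-voom. Their sums were 163.8, 1939, 1812 and 2347 CPM on day 7 and 18.67, 33.08 and 87.88 CPM on day 28. Hbb-bs, a β-globin, had 121, 1057, 1043 and 1676 CPM on day 7, with replicate 1 far below the other three, and 7.18, 18.2 and 70.3 CPM on day 28 (log2 fold change -4.94 ± 0.84, adjusted p = 3.53e-04). The globin genes are near-identical copies, so how reads were split among them is uncertain.

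Of 25 genes of growth factor and Notch signalling, 7 were called higher (28.0%, beside 6.4% of all genes) and 3 lower (12%, beside 8.05%). Notch3, the Notch receptor of arterial smooth muscle, had 5.34, 5.39, 5.98 and 8.07 CPM on day 7 and 48.8, 76.1 and 32 CPM on day 28 (log2 fold change 3.03 ± 0.48, adjusted p = 1.67e-04). Its target Heyl had 24.9, 8.98, 19.9 and 82.3 CPM and 116, 119 and 137 CPM (log2 fold change 1.84 ± 0.45, adjusted p = 0.00672). Neither overlapped between the days. The ligands of the PDGF receptors divided: Pdgfd had 35.6, 26.9, 25.9 and 54.9 CPM and 119, 91 and 155 CPM (log2 fold change 1.75 ± 0.37, adjusted p = 0.00208) and Pdgfc 35.6, 53.9, 39.9 and 37.1 CPM and 122, 54.6 and 131 CPM (log2 fold change 1.30 ± 0.33, adjusted p = 0.00866), both higher, while Pdgfb, the strongest mitogen of the family for smooth muscle, was lower, with 46.3, 79.1, 144 and 66.2 CPM and 27.3, 8.27 and 4.79 CPM (log2 fold change -2.59 ± 0.69, adjusted p = 0.0127). The call of Pdgfb was lost when day 28 replicate 2, day 28 replicate 3 or day 7 replicate 3 was left out (adjusted p = 0.0574, 0.0613 and 0.0507). Igf1, insulin-like growth factor 1, fell from 96.2, 91.7, 99.7 and 140.5 CPM to 35.9, 16.5 and 33.6 CPM (log2 fold change -1.89 ± 0.40, adjusted p = 0.00209).

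Clock genes formed a group of their own. Of 14 tested, 8 were called higher (57.1%, beside 6.4% of all genes) and 1 lower (7.14%, beside 8.05%), with a median log2 fold change of 1.91. Per2, a repressor in the feedback loop of the circadian clock, had 3.56, 1.8, 5.98 and 1.61 CPM on day 7 and 35.9, 92.6 and 73.5 CPM on day 28 (log2 fold change 4.33 ± 0.86, adjusted p = 0.00127). Per1, of the same family, had 21.4, 14.4, 19.9 and 27.4 CPM and 60.3, 92.6 and 136 CPM (log2 fold change 2.19 ± 0.47, adjusted p = 0.00236), and Cry2, their partner, had 8.9, 25.2, 21.9 and 6.46 CPM and 44.5, 84.3 and 83.1 CPM (log2 fold change 2.18 ± 0.55, adjusted p = 0.00921). Every day 28 library was above every day 7 library in all 3 genes. The output factors Dbp and Tef rose too, with 30.3, 44.9, 43.9 and 102 CPM on day 7 and 151, 445 and 329 CPM on day 28 for Dbp (log2 fold change 2.47 ± 0.50, adjusted p = 0.00169). Tef had 44.5, 64.7, 57.8 and 137 CPM and 146, 498 and 546 CPM (log2 fold change 2.37 ± 0.43, adjusted p = 4.99e-04). In both, replicate 1 was the lowest of day 28 and replicate 4 the highest of day 7. Arntl, BMAL1, the activator that the Per and Cry proteins repress, had 16, 14.4, 7.97 and 6.46 CPM on day 7 and 1.44, 0 and 0 CPM on day 28 and was called lower (adjusted p = 0.0469), a call that limma-voom did not make (adjusted p = 0.0861) and that was lost without day 28 replicate 2 or 3 (adjusted p = 0.137 and 0.133) and without day 7 replicate 1, 2 or 3 (adjusted p = 0.0991, 0.0911 and 0.0637). The day 28 libraries differed from each other here: Per3 had 17.2, 288 and 211 CPM, with replicate 1 within the day 7 range of 24.9, 10.8, 29.9 and 33.9 CPM, whereas Nr1d1 had 106, 16.5 and 78.3 CPM, with replicate 2 within the day 7 range of 21.4, 18, 12 and 33.9 CPM. Per3 lost its call without day 28 replicate 2 (adjusted p = 0.0539) and Nr1d1 without day 28 replicate 1 or 3 or day 7 replicate 3 (adjusted p = 0.112, 0.0561 and 0.0502). limma-voom called neither (adjusted p = 0.118 for Per3 and 0.157 for Nr1d1), and Nr1d1 was not called with day 7 and day 28 alone in the fit (adjusted p = 0.0903). The labels give the day and not the hour of collection, so the time of day and the day after injury cannot be told apart for these genes. Exons of Dbp overlap those of Sphk2 on the opposite strand.

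**Figure D5:**
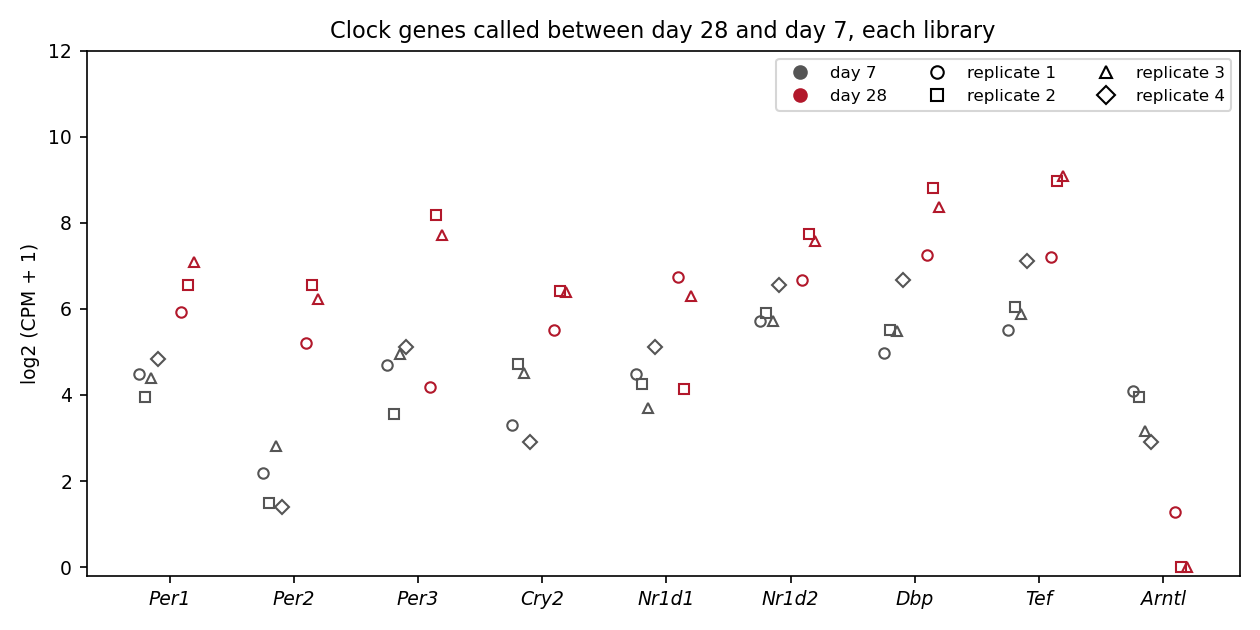
Log2 of CPM plus 1 (vertical axis) of the 9 clock genes called between day 28 and day 7, with 1 symbol per library, grey for day 7 and red for day 28. Per1, Per2 and Cry2 separate the days, replicate 1 of day 28 lies low for Per3, and Arntl is the one gene with day 28 below day 7.

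Heat shock and chaperone genes depended on a single library. Of 25 heat shock and immediate early genes, 5 were called higher (20%, beside 6.4% of all genes) and 3 lower (12%, beside 8.05%). The counts were 2 and 4 without day 28 replicate 1, and 6 and 1 without day 28 replicate 2 or 3. They were 4 and 1 without day 7 replicate 2, and 3 and 1 without day 7 replicate 3. The sum was 3524, 4908, 4170 and 3534 CPM on day 7 and 12400, 2745 and 2542 CPM on day 28, so that replicate 1 of day 28 stood above all libraries of both days and its fellows below them. Hspb1, the small heat shock protein 27, had 155, 126, 203 and 228 CPM on day 7 and 3685, 322 and 214 CPM on day 28 (adjusted p = 0.00391), and without replicate 1 the adjusted p was 0.432 (by limma-voom, with all libraries, 0.0742). The small heat shock genes of muscle, Hspb7 and Hspb8, did not rest on that library. Hspb7 had 48.1, 21.6, 25.9 and 74.3 CPM and 199.6, 259.7 and 283 CPM (log2 fold change 2.52 ± 0.41, adjusted p = 2.08e-04), and Hspb8 had 81.9, 80.9, 85.7 and 161 CPM and 253, 334 and 233 CPM (log2 fold change 1.41 ± 0.29, adjusted p = 0.00171). Junb, an AP-1 factor, fell from 148, 289, 169 and 74.3 CPM to 34.5, 3.31 and 17.6 CPM (log2 fold change -3.17 ± 0.56, adjusted p = 4.75e-04). Of 26 genes of folding and secretion in the endoplasmic reticulum, 3 were called lower (11.5%) and 0 higher, but 1 was called lower without day 28 replicate 2 and 12 without day 28 replicate 1, whose sum of 11230 CPM lay above the 9454 to 10680 CPM of day 7 while replicates 2 and 3 had 5210 and 5206 CPM. Sec61b, a subunit of the channel into the reticulum, was low in all 3 day 28 libraries, with 536, 451, 554 and 546 CPM on day 7 and 270.0, 144 and 219 CPM on day 28 (log2 fold change -1.30 ± 0.32, adjusted p = 0.00656).

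Of the energy metabolism genes, few of those of oxidative phosphorylation were called. Of 36 subunits of oxidative phosphorylation, 2 were called lower (5.56%) and 1 higher (2.78%), shares below those of all genes. Left out, day 28 replicate 1 gave 5 lower and day 28 replicate 2 gave 1. Cox5a, a subunit of cytochrome c oxidase, was one of them, with 237, 230.0, 203 and 165 CPM on day 7 and 57.5, 54.6 and 33.6 CPM on day 28 (log2 fold change -2.10 ± 0.36, adjusted p = 3.39e-04). Of 16 glycolytic genes, 3 were called lower (18.8%, beside 8.05% of all genes) and 0 higher, or 1 lower with day 7 replicate 1 left out. Pgk1, phosphoglycerate kinase, had 208, 223, 309 and 119.5 CPM and 77.6, 36.4 and 87.9 CPM (log2 fold change -1.67 ± 0.38, adjusted p = 0.0039), and its days did not overlap.

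The gene with the smallest p of the whole comparison was Cys1, cystin-1, a protein of the primary cilium, with 7.12, 1.8, 3.99 and 6.46 CPM on day 7 and 87.6, 185 and 152 CPM on day 28 (log2 fold change 4.80 ± 0.45, adjusted p = 9.67e-07). It was 68.9 ± 19.2 CPM on day 14 (mean ± SD, n = 3), 59.8 ± 10.9 CPM on day 21 (n = 4) and 69.3 ± 20.7 CPM on day 0 (n = 4). Ncam1, a neural cell adhesion molecule, had 83.7, 43.1, 59.8 and 74.3 CPM on day 7 and 531, 430.0 and 316 CPM on day 28 (log2 fold change 2.70 ± 0.33, adjusted p = 1.61e-05). Vasn, vasorin, which binds TGF-β, had 110.4, 97, 69.8 and 111 CPM and 686, 538 and 292 CPM (log2 fold change 2.37 ± 0.29, adjusted p = 1.61e-05), and its exons overlap those of Dnaja3 on the same strand. Inpp5a, which ends the calcium signal of inositol trisphosphate, had 60.5, 57.5, 67.8 and 59.7 CPM and 296, 208 and 256 CPM (log2 fold change 2.04 ± 0.26, adjusted p = 2.34e-05). None of these genes overlapped between the days, which was a condition for naming genes by smallest p. Kank4, a regulator of the actin cytoskeleton, had no read on day 7 and 21.5, 48 and 43.1 CPM on day 28, at least 6.28-fold higher (adjusted p = 9.25e-04). Piezo2, a mechanically gated ion channel, had 7.12, 5.39, 17.9 and 6.46 CPM on day 7 and 47.4, 127 and 70.3 CPM on day 28 (log2 fold change 3.14 ± 0.62, adjusted p = 0.00128). Unlike the contractile genes it was nearly absent on day 0, at 0.328 ± 0.656 CPM, and it was 34.6 ± 22 CPM on day 14 and 50.4 ± 23.7 CPM on day 21.

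Among the genes called lower with the smallest p, Hmga1b, a chromatin protein of growing cells, had 623, 828, 724 and 457 CPM on day 7 and 105, 61.2 and 87.9 CPM on day 28 (log2 fold change -2.95 ± 0.40, adjusted p = 4.05e-05). It is a near-identical copy of Hmga1, so the split of reads between the copies is uncertain. Tgfbi, a matrix protein induced by TGF-β, had 1013, 816, 536 and 378 CPM and 80.4, 124 and 118 CPM (log2 fold change -2.67 ± 0.38, adjusted p = 6.10e-05). Alox5ap, the activating protein of leukotriene synthesis, had 223, 169, 173 and 223 CPM and 11.5, 33.1 and 22.4 CPM (log2 fold change -3.14 ± 0.45, adjusted p = 6.14e-05). Plac8, a gene of monocytes and granulocytes, had 137, 109.6, 144 and 22.6 CPM on day 7, with replicate 4 lowest, and no read on day 28, at least 20.8-fold lower (adjusted p = 0.001). These genes too separated the days completely, which was a condition for naming genes by smallest p or largest fold.

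The other days place these differences in time. For the contractile list the median log2 fold change of day 28 was 2.31 against day 7, 0.73 against day 14, 0.71 against day 21 and -0.45 against day 0, with 22, 0, 1 and 0 members called higher and 0, 0, 0 and 1 called lower. For the macrophage list the medians were -2.5, -1.32, -1.63 and 2.15, with 16, 3, 3 and 0 members called lower and 0, 0, 0 and 5 called higher. For the fibrillar collagen list they were -0.55, -1.37, -1.58 and 0.30, with 6, 7, 6 and 0 members called lower and 1, 0, 0 and 1 called higher. The medians of all genes tested were -0.07, -0.06, -0.07 and -0.01. The 4 comparisons share the day 28 libraries.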

How the data were processed

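MACE RNA-seq, which reads 3′ ends, was made from laser-dissected mouse carotid arteries. Per the study's methods, PCR copies were collapsed by their molecular identifiers, and after trimming the authors ran Salmon 1.9.0 on the mm39 transcriptome; the annotation release and the use of strand are not given in the sources used here. The deposited gene table holds estimated counts as whole numbers for 35655 genes, of which 17606 had no count. A second table of normalised values that the authors made with DESeq2 1.36.0 was not used here.

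Of the genes in the count table, 10312 passed filterByExpr by day. All 18 libraries (440675 to 878310 counts) entered 1 edgeR 4.0.16 quasi-likelihood fit (R 4.3.3) with TMM scaling and day as the factor, and p-values were adjusted by Benjamini and Hochberg over all tested genes, with a threshold of 0.05. SEs are the size of the log2 fold change over the root of F. CPM use the TMM-scaled totals. The labels of 3 day 0 libraries carry the same numbers as those of 3 day 21 libraries, and the uninjured right carotid was the study's control, so these may come from the same mice; the fit took them as independent. No day 7 or day 28 library shares a number with another. The labels do not say that replicates came from separate mice, so p-values measure the spread between these samples, which may be technical. Bounds cover counting error only: a gene with no read in a group was set against 3 counts per library.

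The comparison and the 30 gene lists were chosen with earlier results of these data known. Named genes are, among called genes without overlap and with a mean of at least 10 CPM, the 12 of smallest p and the 5 of largest fold per direction, the 3 most abundant called genes per list, and a set of anchor genes. Of 130 genes named, 85 came from this rule and 45 were chosen after their values were seen; some genes are not reported here. Exons of 24 of the 129 with a position in GENCODE vM39 overlap those of another protein-coding gene. Alternatives were DESeq2 1.42.0, limma-voom (limma 3.58.1), RLE, upper quartile scaling or library totals alone, other filters and thresholds, the days alone, a replicate block, thinned libraries, leaving out each library and, added after the data were seen, a fit without day 0. The fit was first tested on simulated data with genes of known fold.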

Additional observations from a re-analysis of the deposited data

Results flagged for a closer look

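In 160 groups of 4 samples, the 4 day 7 libraries of each gene named in the report and of each gene list's sum, the gap between the most distant library and its nearest neighbour was set against the whole range of the group. In 13 of them the share exceeded Dixon's critical value, a size that chance gives in about 1 of 20 groups of normally distributed values. CPM of low counts need not be so distributed, so this rate is only a guide. A gene with reads in a single day 7 library, as for Alpl and Car3, always exceeds the value. Genes with no read on day 7 were counted among the groups but could not exceed it. Day 28, with 3 libraries, was not tested in this way.

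Of the 13, 7 were high values in day 7 replicate 4. Among smooth muscle and elastic fibre genes, that library had 2425 CPM of Flna against 1035 to 1092 in the other libraries, 161.4 CPM of Hspb8 against 80.86 to 85.72 and 345.5 CPM of Ltbp4 against 81.73 to 95.24. Sost was 51.66 CPM against 1.797 to 7.974. The fibroblast genes Clec3b and Pi16 were 46.82 CPM against 3.561 to 9.967 and 166.3 CPM against 41.86 to 61.1, and Igf1 was 140.5 CPM against 91.65 to 99.67. The first 6 of these genes are higher on day 28 and Igf1 is lower, and all 7 passed the test with and without day 7 replicate 4.

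Day 7 replicate 2 had 334.2 CPM of Mmp14 against 156.6 to 165.6 and 1650 CPM of Cd74 against 1065 to 1160, and it was the one day 7 library with Car3, at 5.391 CPM. Day 7 replicate 3 had 81.73 CPM of Cx3cl1 against 140.2 to 148.5 and 17.94 CPM of Piezo2 against 5.391 to 7.122. Alpl had 1 read on day 7, 1.781 CPM in replicate 1.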

How the results depend on the processing

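The count of 1490 genes changed between day 28 and day 7 was 922 with only these days in the fit (437 higher, 485 lower), 691 at an adjusted p under 0.01 (348 and 343) and 826 when a fold of at least 1.5 was tested (386 and 440). DESeq2 called 1900 genes, limma-voom 1528, edgeR with other scalings 1502 to 1530, without a filter on low counts 1721 and with libraries thinned to 440675 counts 1462. Where at least 10 counts in 7 libraries were required, edgeR called 1306 genes (666 higher, 640 lower). Leaving out 1 library gave 1009 to 1717 genes, 489 to 725 higher and 512 to 1048 lower. The replicate numbers did not pair the libraries (correlations of deviations 0.065, 0.0019 and 0.016), and a replicate block gave 1342 genes. With the day 0 libraries left out of the fit, an alternative chosen after the data were seen, 1572 genes were called (733 higher, 839 lower), of which 1382 were among the 1490. Against day 21 the 70 genes were 301 by DESeq2, 373 without a filter, 22 at 0.01, 22 with the minimum fold and 15 to 410 with 1 library left out. Against day 14 the 72 genes were 239 by DESeq2, 43 by limma-voom, 382 without a filter, 4 with those days alone, 36 with the block, 17 at 0.01, 22 with the minimum fold and 10 to 279 with 1 library left out. The cause of these changes was not tested.

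Of 130 genes named, 105 kept direction and call in every alternative, and of 2580 single values 56 lost the call, 20 gained it and 7 changed sign, all 7 in genes not called. Most of these genes were named for results in these same data, so their stability does not stand for that of all called genes. The log2 fold change of Pecam1 became -0.0194 with upper quartile scaling and -0.0195 without a filter, and with 1 library left out it ran from -0.20 (day 7 replicate 1) to 0.32. That of Pdgfra ran from -0.69 to 0.24 (day 7 replicate 2) and that of Eln from -1.31 to 0.12 (day 7 replicate 4). limma-voom moved the median log2 fold change of all genes from -0.07 to -0.22. At these depths a gene of a few CPM rests on a few reads.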
